A study of Mus musculus with 5 samples.

Results

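The proteasome subunit genes were taken as the protein-coding genes whose symbols begin with Psma, Psmb, Psmc, Psmd, Psme, Psmf or Psmg, which gave 50 of the 21755 protein-coding genes on chromosomes 1 to 19 and X of the mouse annotation. The rule reads gene symbols and no measured value, although the family itself was picked with earlier results of these data known. Psmc3ip, a factor of meiotic recombination, carries a matching symbol without being part of the proteasome and was kept because the rule takes it in.

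The proteasome is the protease that degrades proteins marked with ubiquitin. Its barrel-shaped core particle (20S) is built from rings of alpha subunits, encoded by Psma genes, and beta subunits, encoded by Psmb genes, some of which cut peptide bonds. The regulatory particle (19S) recognises, unfolds and feeds substrates to the core by means of ATPases (Psmc genes) and non-ATPase subunits (mostly Psmd genes), other activators (Psme) and an inhibitor (Psmf1) bind the core in its place, and dedicated chaperones (Psmg1 to Psmg4, Psmd5, Psmd9 and Psmd10) help to assemble the particles.

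The data are ChIP-seq peak lists for 3 V5-tagged proteins in female mouse embryonic stem cells (mESCs) of strain 129/Sv-Cast/Ei, 1 library each: REX1, a transcription factor of pluripotent cells, expressed as FLAG-V5-REX1 in WT cells; RNF12 WT, the E3 ubiquitin ligase that targets REX1 for degradation; and RNF12 H569A,C572A, a catalytically inactive form. Both RNF12 proteins were expressed with FLAG and V5 tags from a CAG promoter, in stably selected cells carrying 1 disrupted copy of Rlim, the gene of RNF12, and the level of the tagged protein relative to the native one was not measured here. Those cells received the proteasome inhibitor MG132 at 15 μM for 3 h and were cross-linked with 2 mM disuccinimidyl glutarate and 1% formaldehyde, whereas no such treatment is stated for REX1, whose occupancy the paper attributes to earlier work. Both RNF12 lists therefore come from cells in which the protein complex encoded by these genes was inhibited, and any part of this in the results was not tested. The 2 further samples, controls labelled input, were not analysed here. There are 96050 peaks in the REX1 list, 97602 in the RNF12 WT list and 98124 in the RNF12 H569A,C572A list. Read totals are not part of them, so the depth is unknown, and a peak list carries no expression values against which the labelled cell type could be checked. Each peak has a summit, its position of highest signal, and a fold enrichment over a control, whose library was not identified here for any list. Fold enrichment was used only within a list, as the percentile of peaks of that list that lie lower, and with 1 library per list no difference between lists was tested. The intervals given are 95% Wilson intervals and cover counting error only.

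Almost every proteasome gene had a peak of all 3 proteins near a TSS, where the TSS of any of its transcripts was allowed. A REX1 summit lay within 1 kb of a transcription start site (TSS) of 47 of the 50 genes (94.0%, interval 83.8% to 97.9%), against 67.5% of all protein-coding genes. For RNF12 WT the count was 48 (96.0%, 86.5% to 98.9%), against 68.9%, and for RNF12 H569A,C572A it was also 48, against 67.7%. Summits of all 3 lists were found at 46 genes (92.0%, 81.2% to 96.8%), against 60.7%, and only Psme2b had none, a state shared by 25.1% of protein-coding genes. The ring subunits of the constitutive core, the ATPases and the 11 non-ATPase subunits of the regulatory particle had summits in every list, without a gap.

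This excess over all protein-coding genes was also that of genes with CpG-rich promoters, the class to which most housekeeping genes belong. A TSS was called CpG-rich where the 500 bp on either side had a GC content of at least 50% and a ratio of observed to expected CpG of at least 0.6. By this measure 40 proteasome genes (80.0%) had a CpG-rich TSS, against 11235 of 21755 protein-coding genes (51.6%). Of all genes with a CpG-rich TSS, 97.4% had a REX1 summit, 97.9% an RNF12 WT summit and 99.4% an RNF12 H569A,C572A summit, and of the 40 proteasome genes among them 39, 40 and 40 did. Having a summit was therefore about as frequent at the proteasome genes of this class as at the class as a whole. Among the 10 proteasome genes without a CpG-rich TSS, 8 had a summit in each list (80.0%, interval 49.0% to 94.3%), against 35.5%, 37.9% and 34.0% of all such genes. Psmg4, Psmb10 and Psmb8 missed the limit on the CpG ratio by little (0.595, 0.586 and 0.58), and Psmb6 that on GC content (49.0%). All of these had summits in every list, and their part in the count was not tested. The class was first taken from the start of the gene record alone, and any TSS was allowed only after the values of that version had been seen, because the summits were also assigned to any TSS. In the first version 35 proteasome genes were CpG-rich and all 35 had summits in every list, beside 97.5%, 98.0% and 99.5% of all such genes, and of the 15 others 12, 13 and 13 had a summit, beside 43.1%, 45.3% and 42.0%. Proteasome genes also have more annotated start sites, with a median of 5 TSSs per gene against 3 for all protein-coding genes. Among genes with 2 to 4 TSSs, REX1 summits were at 20 of 20 proteasome genes (lower bound of the interval 83.9%), against 61.9% of all, and summits of each RNF12 protein at 19 of 20 (76.4% to 99.1%), against 63.2% (RNF12 WT) and 61.5% (RNF12 H569A,C572A). Among genes with 5 or more TSSs, REX1 summits were at 25 of 27 (92.6%, interval 76.6% to 97.9%), against 90.3%, and summits of both RNF12 proteins were at all 27 (lower bound 87.5%), against 91.3% and 90.5%.

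Peaks in the top 10% of a list by fold enrichment, which began at 7.23-fold in the REX1 list, 6.63-fold in the RNF12 WT list and 15.5-fold in the RNF12 H569A,C572A list, were less evenly spread. They stood at 15 proteasome genes for REX1 (30.0%, interval 19.1% to 43.8%), against 18.7% of all protein-coding genes. For RNF12 WT there were 21 (42.0%, 29.4% to 55.8%), against 23.5%, and for RNF12 H569A,C572A 12 (24.0%, 14.3% to 37.4%), against 14.5%. The corresponding shares of all genes with a CpG-rich TSS were 30.7%, 38.3% and 26.5%, each inside the interval of the proteasome genes. The 40 proteasome genes with a CpG-rich TSS had shares of 35.0% (22.1% to 50.5%), 47.5% (32.9% to 62.5%) and 30.0% (18.1% to 45.4%), each above the class but with the class inside the interval. At least 1 such peak was present at 32 proteasome genes (64.0%, interval 50.1% to 75.9%), against 37.7% of all protein-coding genes and 61.4% of those with a CpG-rich TSS. Psmc4, Psmd3, Psmd5 and Psmd7 had one in all 3 lists (8.0%, 3.15% to 18.8%), against 3.87% and 7.13%. At Psmd3 and Psmd5 the strongest REX1 and RNF12 WT peaks did not overlap, so these were not 1 shared site. Chromosome 12, which holds Psma3, Psma6 and Psmc1, differed between the lists, with top 10% peaks at 30.8% of its protein-coding genes for REX1, 15.1% in the RNF12 WT list and 26.4% in the RNF12 H569A,C572A list, and summits at 81.5%, 67.0% and 81.2%. Without genes on this chromosome, an omission chosen after seeing the data, the top 10% counts were 14, 20 and 11 of 47 proteasome genes, against 18.3%, 23.7% and 14.1%, and the summit counts 44, 45 and 45, against 67.0%, 69.0% and 67.3%. The strongest peak of a proteasome gene lay at a median percentile of 84.4 in the REX1 list, 86.1 in the RNF12 WT list and 82.6 in the RNF12 H569A,C572A list, beside 77.5, 81.0 and 79.8 for all protein-coding genes with a summit and 81.0, 85.1 and 83.4 for those with a CpG-rich TSS. When strength was taken as −log10 q, the RNF12 H569A,C572A count was 6, beside 7.67% of all protein-coding genes, the REX1 count 20, beside 21.0%, and the RNF12 WT count 27, beside 26.6%, so that count and background moved the same way in each list. With only the 20000 peaks of highest −log10 q in each list, summits of all 3 proteins were at 13 proteasome genes, beside 14.6% of all protein-coding genes.

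**Figure D1:**
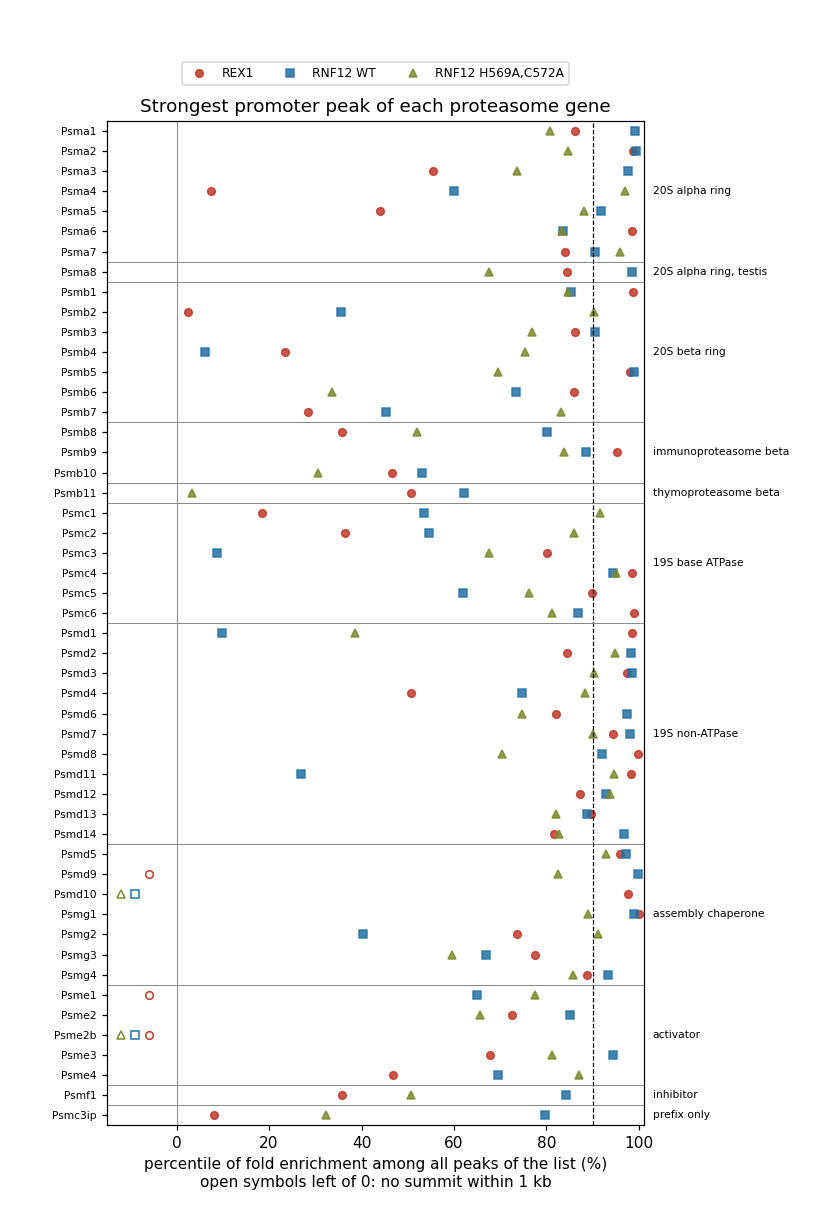
Percentile of the strongest promoter peak of each of the 50 proteasome genes (rows, grouped by role) among all peaks of the same list, in percent, for REX1 (circles), RNF12 WT (squares) and RNF12 H569A,C572A (triangles); open symbols left of 0 mark no summit within 1 kb, and the dashed line marks the top 10%. Psmc4, Psmd3, Psmd5 and Psmd7 have 3 symbols at or beyond the line, and Psme2b has only open symbols.

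In the alpha rings, which gate the entry to the core, all 7 constitutive genes had summits in each list. Psma2 had a REX1 peak of 13.4-fold enrichment and an RNF12 WT peak of 9.72-fold, the latter ranking 714 of 97602. Its RNF12 H569A,C572A peak had 13.1-fold enrichment, at the 84.7 percentile of that list. All 3 summits lay upstream of the nearest Psma2 TSS, between positions −214 and −150, on the side of the neighbouring Mrpl32, whose TSS is within 1 kb. Psma1 had an RNF12 WT peak of 9.58-fold, ranking 799, beside a REX1 peak of 6.61-fold (percentile 86.1) and an RNF12 H569A,C572A peak of 11.8-fold (percentile 80.8). Psma4 showed the widest spread among the alpha genes. Its RNF12 H569A,C572A peak was the strongest of any proteasome gene in that list (22.7-fold, rank 2985 of 98124), while its REX1 peak of 3.06-fold lay at the 7.53 percentile and its RNF12 WT peak of 4.96-fold at the 60.0 percentile. Psma7 came next in the RNF12 H569A,C572A list with 20.8-fold (rank 4037), beside 6.34-fold for REX1 (percentile 84.0) and 6.65-fold for RNF12 WT (percentile 90.5).

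Psma8, the alpha subunit of the testis form, also carried peaks in these cells. Enrichment was 6.4-fold (REX1), 8.95-fold (RNF12 WT) and 8.81-fold (RNF12 H569A,C572A), at percentiles of 84.5, 98.6 and 67.5 of the respective lists.

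Of the beta subunits that carry the proteolytic sites, Psmb5, of the chymotrypsin-like site, ranked highest in the REX1 and RNF12 WT lists and Psmb7 in the RNF12 H569A,C572A list. For Psmb5, enrichment was 11.7-fold (REX1), 9.28-fold (RNF12 WT) and 9.18-fold (RNF12 H569A,C572A), at percentiles of 98.1, 98.9 and 69.6. Psmb6, of the caspase-like site, had 6.55-fold, 5.52-fold and 5.8-fold, at percentiles of 85.9, 73.4 and 33.6. The REX1 summit of Psmb6 was at the gene start, whereas these RNF12 summits lay by another TSS, farther downstream. Near the gene start an RNF12 WT peak had 4.2-fold (percentile 35.7) and an RNF12 H569A,C572A peak 4.99-fold (percentile 19.7). Psmb7, of the trypsin-like site, had 3.89-fold, 4.53-fold and 12.6-fold, at percentiles of 28.5, 45.4 and 83.2. The 3 catalytic genes therefore had no common order across the lists. The lowest REX1 peak of the whole set was at Psmb2 (2.67-fold, percentile 2.44), whose RNF12 H569A,C572A peak was at the 90.2 percentile, and the lowest RNF12 WT peak was at Psmb4 (2.89-fold, percentile 6.09).

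The beta subunits of the immunoproteasome, which replace the constitutive catalytic ones in immune and interferon-treated cells, had summits in all 3 lists too. Psmb8 stood at percentiles of 35.8 (REX1), 80.1 (RNF12 WT) and 52.1 (RNF12 H569A,C572A). Psmb10 stood at 46.5, 53.1 and 30.5. Psmb9 was higher, at 95.3, 88.5 and 83.8, and shares its promoter region with Tap1, a transporter of antigenic peptides. Psmb11, of the thymoproteasome of the thymic cortex, stood at 50.6, 62.2 and 3.42, the last being the lowest RNF12 H569A,C572A value of any proteasome gene.

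The ATPase genes of the regulatory particle ranged from 3.55-fold to 13.9-fold in the REX1 list, from 3.06-fold to 7.19-fold in the RNF12 WT list and from 8.78-fold to 19.9-fold for RNF12 H569A,C572A. Psmc6 had the REX1 peak next in strength to those of Psmg1 and Psmd8 (13.9-fold, rank 983 of 96050, summit 4 bp upstream of a TSS). Psmc4 was high in every list, at 12.5-fold (REX1), 7.19-fold (RNF12 WT) and 19.9-fold (RNF12 H569A,C572A), or percentiles of 98.5, 94.4 and 95.1. The last ranked 4772 in its list, next to those of Psma4 and Psma7.

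Among the non-ATPase subunits, Psmd8 had the second strongest REX1 peak of the set (20.3-fold, rank 198, −log10 q of 89.4), 8 bp upstream of a TSS. Its RNF12 WT peak was 6.85-fold (percentile 92.1) and its RNF12 H569A,C572A peak 9.33-fold (percentile 70.4). Psmd14, the deubiquitylase of the lid, had 6.05-fold, 7.87-fold and 12.4-fold, in the same order of proteins, at percentiles of 81.6, 96.8 and 82.7. Psmd4, a ubiquitin receptor, had 4.49-fold, 5.6-fold and 14.7-fold, at percentiles of 50.6, 74.8 and 88.4. Psmd1, a scaffold of the base, was at the 98.6 percentile for REX1 and at 9.85 for RNF12 WT, so a high rank in one list did not go with a high rank in another at every gene.

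The assembly chaperones held both the strongest REX1 peak of the set and a pair of genes with complementary gaps. Psmg1 had a REX1 peak of 31.0-fold (rank 31 of 96050, −log10 q of 143), with its summit 2 bp downstream of a TSS. Its RNF12 WT peak was 9.1-fold (percentile 98.9) and its RNF12 H569A,C572A peak 15.0-fold (percentile 88.9). Psmd9 had the strongest RNF12 WT peak of the set (11.4-fold, rank 222 of 97602) and an RNF12 H569A,C572A peak of 12.3-fold, but no REX1 summit within 1 kb, the nearest lying 1269 bp away at 3.76-fold. Over all protein-coding genes, 135 shared this pattern of an RNF12 WT peak in the top 10%, a summit of RNF12 H569A,C572A and no REX1 summit. They are 135 of 5109 genes with an RNF12 WT peak in the top 10%. Psmd10, also called gankyrin, was the reverse. It had a REX1 peak of 11.1-fold (percentile 97.7), 187 bp downstream of a TSS, and no summit of RNF12 WT within 41892 bp or of RNF12 H569A,C572A within 41547 bp. A REX1 peak in the top 10% with neither RNF12 protein was found at 42 protein-coding genes, of 4065 with a REX1 peak in the top 10%. Psmd10 lies on the X chromosome and shares its promoter region with Atg4a. Of the 948 protein-coding genes on X, 50.9% had a REX1 summit, 53.1% an RNF12 WT summit and 51.1% an RNF12 H569A,C572A summit, and top 10% peaks stood at 17.9%, 17.7% and 6.75%. Psmd10 has no CpG-rich TSS, and of the 670 genes on X without one, 31.8%, 34.2% and 31.9% had a summit in the respective list. These shares also count genes without a REX1 summit. A REX1 summit was at 213 of the 670 genes, and summits of all 3 lists at 153. Over all protein-coding genes, 522 of the 14678 with a REX1 summit had neither RNF12 protein. The upstream sequences of the 3 genes at these extremes and of Psmd8 follow, from GRCm38, in the direction of the gene and clear of annotated exons, with capitals marking the short strings searched for.

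Psmg1, chr16:95990961-95991040, minus strand: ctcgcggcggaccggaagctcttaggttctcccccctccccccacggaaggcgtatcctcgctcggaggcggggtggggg
Psmd8, chr7:29180702-29180823, minus strand: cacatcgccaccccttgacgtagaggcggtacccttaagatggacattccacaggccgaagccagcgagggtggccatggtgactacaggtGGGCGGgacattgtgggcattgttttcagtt
Psmd9, chr5:123228108-123228189, plus strand: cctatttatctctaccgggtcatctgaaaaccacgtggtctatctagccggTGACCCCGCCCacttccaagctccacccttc
Psmd10, chrX:140956729-140956839, minus strand: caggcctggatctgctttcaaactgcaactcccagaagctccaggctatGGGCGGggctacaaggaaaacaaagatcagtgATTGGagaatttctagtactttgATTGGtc

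The Psmg1 stretch of 80 bases held none of the strings searched for. The Psmd8 stretch held GGGCGG, and the Psmd9 stretch held a GGGCGG on the opposite strand overlapping TGACNNNGC, the antioxidant response element. In the Psmd10 stretch GGGCGG was joined by a pair of CCAAT strings on the opposite strand.

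The 5 activator genes had the lowest summit shares of any role. A REX1 summit was at 3 of them (60.0%, interval 23.1% to 88.2%), against 67.5% of all protein-coding genes. Each RNF12 protein had one at 4 (80.0%, 37.6% to 96.4%), against 68.9% (RNF12 WT) and 67.7% (RNF12 H569A,C572A). Psme1, Psme2 and Psme2b have no CpG-rich TSS. Psme1 had no REX1 summit within 1 kb, the nearest being 1456 bp away, but had RNF12 WT and RNF12 H569A,C572A peaks of 5.16-fold and 10.8-fold (percentiles 65.0 and 77.5). Psme2b was without a summit in any list, the nearest summits being 5692, 5678 and 5689 bp away. Psme2, Psme3 and Psme4 had summits in all 3 lists, and of the activators only Psme3 reached the top 10% (RNF12 WT, 7.21-fold). Psmf1, the inhibitor, stood at percentiles of 35.7 (REX1), 84.2 (RNF12 WT) and 50.8 (RNF12 H569A,C572A). Psmc3ip, matched by name only, stood at 8.04, 79.7 and 32.4.

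Summits sat close to the start sites. The strongest REX1 summit was a median of 42 bp from the nearest TSS of the proteasome gene, against 116 bp for all protein-coding genes and 106 bp for those with a CpG-rich TSS, and 36 of 47 (76.6%) were within 150 bp, against 55.9%. Mitochondrial ribosomal protein genes had smaller medians, of 33 bp (REX1), 39 bp (RNF12 WT) and 47 bp (RNF12 H569A,C572A) and 85.7%, 78.7% and 79.5% of summits within 150 bp, the last being below the proteasome share. For RNF12 H569A,C572A the median at proteasome genes was 60 bp against 97 bp, with 40 of 48 (83.3%) within 150 bp against 63.5%. For RNF12 WT the median was 112 bp against 132 bp, with 27 of 48 (56.2%) within 150 bp against 53.7%, a difference of little size. The peaks of RNF12 WT and RNF12 H569A,C572A overlapped at all 48 genes that had both, against 97.4% over all protein-coding genes, with a median of 30 bp between the summits against 40 bp. REX1 peaks overlapped those of RNF12 WT at 44 of 46 genes (95.7%, against 93.7%, with 41.5 bp between the summits against 44 bp) and those of RNF12 H569A,C572A at 44 of 46 (95.7%, against 95.1%, with 67 bp against 57 bp). Overlap at proteasome genes was thus near that at other genes.

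**Figure D2:**
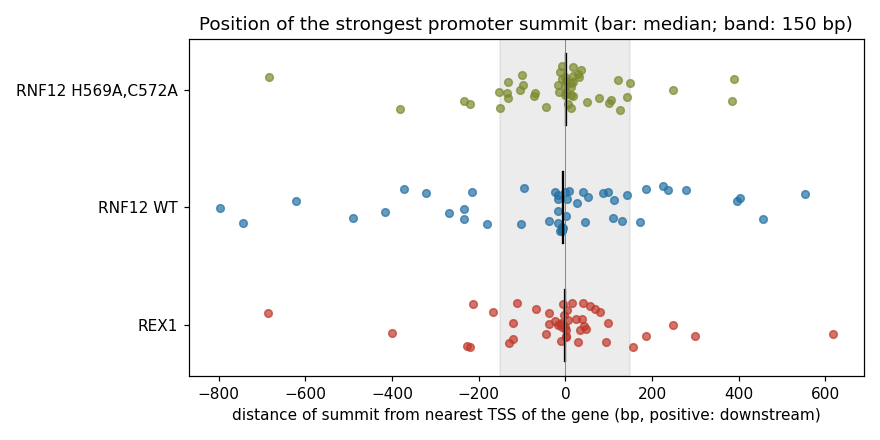
Distance of the strongest promoter summit from the nearest TSS of the gene, in bp, for the proteasome genes with a summit in each list; points are genes with random vertical scatter, black bars are medians and the grey band spans 150 bp on either side. The medians of the unsigned distances given in the text are 42, 112 and 60 bp, and the RNF12 WT points reach farthest.

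A promoter peak cannot always be given to 1 gene. Another gene has a TSS within 1 kb at 17 of the 50 genes, and a protein-coding one at 14, among them Psma2 with Mrpl32, Psmb1 with Tbp, Psmb9 with Tap1, Psmc2 with Dnajc2, Psmd13 with Sirt3 and Psmd10 with Atg4a. No 2 proteasome genes shared a promoter. The strongest summit had its nearest TSS in the proteasome gene itself at 42 of 47 genes for REX1 and at 40 of 48 for each RNF12 protein. Beyond 1 kb of the TSSs, the gene bodies held 24 REX1 summits in 13 genes, 24 RNF12 WT summits in 16 and 44 RNF12 H569A,C572A summits in 18. These are 26.0%, 32.0% and 36.0% of the proteasome genes, against 45.4%, 48.1% and 46.3% of all protein-coding genes. Gene length differed as well, with a median of 11.6 kb for proteasome genes and 17.4 kb for all, and its part in the difference was not tested.

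The motif bound by REX1 and its relative YY1 was searched as ATGGCGAC, ATGGCGCC, ATGGCGGC, ATGGCTAC, ATGGCTCC and ATGGCTGC, on both strands. It was within 50 bp of a REX1 promoter summit at 13 proteasome genes of 50, against 13.9% of all protein-coding genes. Counted over summits, 13 of 85 (15.3%, interval 9.16% to 24.4%) held it, against 9.58% of all promoter summits of REX1, a value inside the interval. At RNF12 WT promoter summits the share was 11 of 104 (10.6%, 6.01% to 18.0%), against 4.30%, and at RNF12 H569A,C572A summits 9 of 77 (11.7%, 6.27% to 20.7%), against 4.60%. The 13 instances at REX1 summits are shown with 11 bases on either side, read along the strand of the motif, from GRCm38, with the motif in capitals.

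Psma2, chr13:14613000-14613029, minus strand: ttgagaagatcATGGCTCCttcgttgctgc
Psma5, chr3:108256905-108256934, minus strand: ccgcgctttggATGGCTGCaagacttggcc
Psma6, chr12:55398821-55398850, minus strand: tcccggaagttATGGCTACtgcttccggag
Psmb5, chr14:54618065-54618094, minus strand: ccggagtaaaaATGGCGCCgcctccgtcta
Psmb6, chr11:70525386-70525415, plus strand: agcagaggaagATGGCGGCcgccttagctg
Psmb7, chr2:38643884-38643913, minus strand: ttcttggcaagATGGCGGCtgtgtcggtgt
Psmb9, chr17:34187869-34187898, plus strand: gctcacgctcgATGGCTGCgcacgtctggc
Psmc3, chr2:91054294-91054323, plus strand: ggcaggagaagATGGCGACcgtgtgggatg
Psmd11, chr11:80428654-80428683, plus strand: agagcggtaagATGGCGGCcgcagcggtgg
Psmd5, chr2:34870904-34870933, minus strand: gagccagggagATGGCGGCgcaggctgtgt
Psmd6, chr14:14120871-14120900, plus strand: tttctagcggcATGGCTACagcacaggagc
Psmd7, chr8:107588515-107588544, minus strand: cctttctcaagATGGCGCCcctggcgacag
Psmg1, chr16:95990872-95990901, minus strand: gctgagggaccATGGCTGCcacgttctttg

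Of these, 5 read AAGATGGC, the longer YY1 core, at Psmb6, Psmb7, Psmc3, Psmd7 and Psmd11. Inspection of the sequences after they had been drawn showed that the ATG of the motif was often the first codon of a protein. It coincided with an annotated start codon on the same strand at 8 of the 13 instances, against 20.7% of the 2898 REX1 promoter summits with a motif. At RNF12 WT promoter summits it did so at 4 of 11 instances, against 20.9%, and at RNF12 H569A,C572A promoter summits at 3 of 9, against 25.9%. At Psma2 and Psmb9 that codon reads against the proteasome gene. The motif was present at Psmg1, the strongest REX1 peak, at the start codon, and also at weak peaks, at Psmb7 (percentile 28.5) and at a Psma5 peak of percentile 25.5 that is not the strongest of that gene. It was not within 50 bp of the summit at Psmd8 or Psmc6, the next strongest.

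In the promoters from RefSeq (250 bases before to 50 after the start, GRCm38.p6), 42 of the 50 genes were matched, with 45 promoters. The ETS core CCGGAAGT was in 10 of these (22.2%, interval 12.5% to 36.3%), against 5.37% of all promoters and 8.04% of those of genes with a CpG-rich TSS, both below the interval. The REX1 motif was in 9 (20.0%, 10.9% to 33.8%), against 8.34% and 10.7%, which also lie below the interval, the second by little. TGACNNNGC, the element through which NFE2L1 is known to raise proteasome genes, was in 6 (13.3%, 6.26% to 26.2%), against 13.1% and 14.3%. It was found at Psmb5, Psmb6, Psmc6, Psmd9, Psmd12 and Psme4. AAGATGGC was in 3 (6.67%, against 3.11% and 4.31%), as was the NRF1 core GCATGCGC (6.67%, against 3.65% and 5.57%). CCAAT was in 15 (33.3%, against 37.9% and 36.7%). GGGCGG was in 24 (53.3%), above the 48.0% of all promoters but below the 66.9% of promoters of genes with a CpG-rich TSS, where the proteasome promoters of that class had 51.4%. All strings were searched on both strands, AAGATGGC overlaps the REX1 motif, and a match is a description of the letters only. Several strings were tried and none was tested. The ETS core was also within 50 bp of 4 of 85 REX1 promoter summits (4.71%, against 1.25%), 7 of 104 of RNF12 WT (6.73%, against 1.47%) and 7 of 77 of RNF12 H569A,C572A (9.09%, against 1.48%). The 10 instances in promoters are shown because this string differed most from the background, in the same form as above.

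Psma6, chr12:55398830-55398859, minus strand: caagccccctcCCGGAAGTtatggctactg
Psmc1, chr12:100110162-100110191, minus strand: aatcgccaccgCCGGAAGTgcatccaccaa
Psmc2, chr5:21785179-21785208, minus strand: cgagccccatcCCGGAAGTgctcactggtc
Psmc2, chr5:21786711-21786740, minus strand: tctcttccccaCCGGAAGTagctccgcgcc
Psmd12, chr11:107479499-107479528, minus strand: cgtcactcgcaCCGGAAGTcgcccgctcat
Psmd13, chr7:140882377-140882406, plus strand: cgcccgcggtgCCGGAAGTgagcgagcact
Psmd6, chr14:14120972-14121001, minus strand: cagagacgcgaCCGGAAGTcagactggcgg
Psme3, chr11:101316203-101316232, minus strand: cgccgctcacgCCGGAAGTtgcgtcacagc
Psme4, chr11:30771711-30771740, plus strand: gtggccccgccCCGGAAGTgacttgaggcc
Psmg3, chr5:139826872-139826901, minus strand: acggacaggaaCCGGAAGTtctcgccggga

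The ETS core began between positions −85 and 16 from the start in all 10, at genes of the core (Psma6), the regulatory particle (Psmc1, Psmc2, Psmd6, Psmd12, Psmd13), the activators (Psme3, Psme4) and an assembly chaperone (Psmg3). At Psma6 the ETS and REX1 strings lie side by side and both appear in the windows shown.

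**Figure D3:**
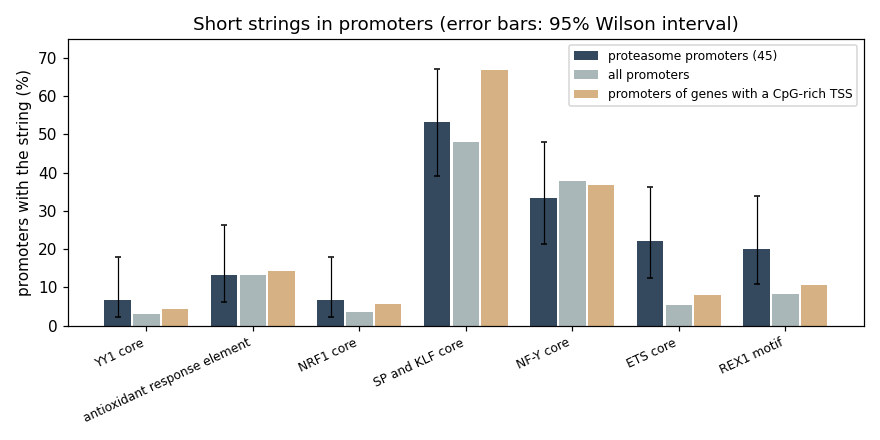
Share of promoters, in percent, that hold each short string for proteasome genes (dark bars, with 95% Wilson intervals), all promoters (grey) and promoters of genes with a CpG-rich TSS (tan). Both background bars lie below the proteasome interval for the ETS core, at 5.37% and 8.04% against 22.2%, and for the REX1 motif, at 8.34% and 10.7% against 20.0%.

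Other large complexes with housekeeping roles gave like counts. Of 86 cytosolic ribosomal protein genes, a REX1 summit was at 82, an RNF12 WT summit at 81 and an RNF12 H569A,C572A summit at 79 (95.3%, 94.2% and 91.9%), and of 78 mitochondrial ribosomal protein genes, 77, 75 and 73 (98.7%, 96.2% and 93.6%). The top 10% of peaks held 25.6%, 26.7% and 10.5% of the cytosolic and 48.7%, 46.2% and 28.2% of the mitochondrial ribosomal protein genes. The proteasome shares of 30.0%, 42.0% and 24.0% lay above the former and below the latter in each list, with intervals that overlap both.

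**Figure D4:**
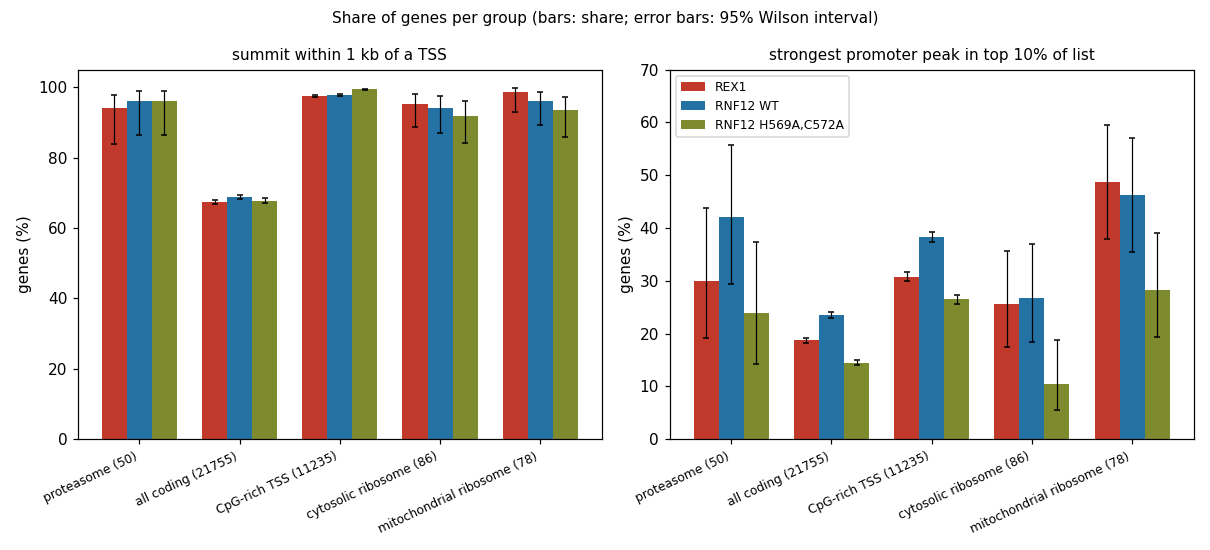
Share of genes, in percent, with a summit within 1 kb of a TSS (left) and with the strongest promoter peak in the top 10% of its list (right), for 5 groups of genes and 3 lists; bars are shares and error bars 95% Wilson intervals. On the left all groups but all protein-coding genes stand above 90%, and on the right the proteasome intervals span the values of genes with a CpG-rich TSS.

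A wider list of 32 ubiquitin, shuttle and regulator genes of the same pathway had summits of all 3 proteins at every gene, against 60.7% of all protein-coding genes and 95.1% of those with a CpG-rich TSS. The top 10% held 15 of them in the REX1 list (46.9%, against 18.7% and 30.7%), 13 in the RNF12 WT list (40.6%, against 23.5% and 38.3%) and 12 in the RNF12 H569A,C572A list (37.5%, against 14.5% and 26.5%). Nfe2l1, whose product drives proteasome genes when the proteasome is inhibited, had peaks of 7.74-fold, 6.43-fold and 13.7-fold (percentiles 92.0, 88.8 and 86.3). Ddi2, the protease that activates it, had 8.15-fold, 6.91-fold and 29.2-fold (93.4, 92.4 and 99.0). Pomp, a chaperone of core assembly, had 10.7-fold, 5.25-fold and 8.77-fold (97.5, 67.0 and 67.0). Rad23b, a shuttle for ubiquitylated proteins, had 16.3-fold, 6.52-fold and 8.93-fold (99.5, 89.3 and 68.1). Txnl1, a thioredoxin bound to the regulatory particle, had 14.1-fold, 10.7-fold and 26.0-fold (99.0, 99.6 and 98.2).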

How the data were processed

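The authors trimmed reads with Trim Galore 0.6.7, aligned them with Bowtie2 2.5.0 to mm10 with N at the SNPs of the 129/Sv-Cast/Ei cross, split them by allele, merged the alleles with SAMtools 1.10 and called narrow peaks with MACS2 2.2.7.1 at default settings, 1 list per library. The deposited fold enrichment is a ratio to a control, deposited −log10 p and −log10 q come from MACS2, and the deposited score was not used. Masked alleles and the choice of control could change which peaks were called. Chromosomes 1 to 19 and X were used.

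Here, summits were assigned to every protein-coding gene with a TSS of any transcript (GENCODE release M21) within 1 kb, and each gene took its strongest peak. The top 10% of a list is by fold enrichment. No test was made, since each list has 1 library. Members and lists were chosen with earlier results of these data known. Genes named with values are the 3 with the highest fold enrichment per list, those with a summit in no list or 1 list, Psma8, Psmb8 to Psmb11, Psmb5 to Psmb7, Psmd14, Psmd4, and those with the REX1 motif. Others singled out (Psmb2, Psmb4, Psmd1, Psme1 to Psme4, Psmf1, Psmc3ip and the pathway genes named) were chosen after their values were seen. The class of CpG-rich TSSs was given 2 definitions, the second after the values of the first were known, and both are reported. Assignment was tested on simulated data. Scripts ran under Python 3.11.15 with pandas 2.3.3, numpy 2.4.6 and matplotlib 3.10.9.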

Additional observations from a re-analysis of the deposited data

How the results depend on the processing

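Of the 82 alternative values, 74 stayed within 1.5 times the value reported. Among the 74 are top 10% counts under the −log10 q thresholds and the limit of 20000 peaks, which kept the ranks of the full list. They stayed at 15 (REX1), 21 (RNF12 WT) and 12 (RNF12 H569A,C572A), could hardly have moved and say little about stability. With only the 20000 peaks of highest −log10 q per list, REX1 summits remained at 29 proteasome genes, RNF12 H569A,C572A summits at 22 and summits of all 3 lists at 13, beside 35.3%, 29.2% and 14.6% of all protein-coding genes. Without the 17 genes that have a TSS of another gene within 1 kb, which leaves 33, 30 genes had a REX1 summit, 30 had all 3, and 8 and 7 had a REX1 and an RNF12 H569A,C572A peak in the top 10%; fewer genes were counted. Ranked by −log10 q, 6 genes had an RNF12 H569A,C572A peak in the top 10%, beside 7.67% of all genes, where the REX1 and RNF12 WT counts were 20 and 27; the cause was not tested. The windows of 300 bp and 3 kb, the thresholds of 2 and 5 on −log10 q, the other annotations, the peak edge, the omission of Psmc3ip and that of chromosome 12 moved no count by more than 1.5 times, and the REX1 motif count was 17 within 100 bp and 11 at −log10 q of at least 5. No paired analysis was possible because each list comes from 1 library. Depth is unknown, so an absent summit cannot be told apart from one below the threshold.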
